A study of Homo sapiens with 24 samples.

Results

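Transcripts of the IL6 family of cytokines, of the colony stimulating factors CSF1 and CSF2 and of the SOCS inhibitors were followed in HEK293 cells that over expressed SIRT6 or its H133W mutant and were stimulated with TNFα. The members were taken by gene symbol. They are the ligands IL6, LIF and IL11, the shared receptor chain IL6ST, the cytokine IL32, the growth factors CSF1 and CSF2, and the inhibitors SOCS1, SOCS2 and SOCS3. Every probe set that the platform table gives to one of these symbols alone was used, which made 27 of the 54675 probe sets on the array. Of the 10 genes 9 were measured in this way, and CSF2 was not analysed here because no probe set is listed for it in that table. IL6ST is read by 7 probe sets, CSF1, SOCS1 and SOCS3 by 4 each, SOCS2 by 3, IL11 by 2, and IL6, LIF and IL32 by 1 each.

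IL6, LIF and IL11 bind receptors that share the signalling chain gp130, the product of IL6ST. Through gp130 they activate JAK kinases and STAT3, and STAT3 in turn induces SOCS3, which binds gp130 and JAK and shuts the pathway off. CSF1 signals through the tyrosine kinase CSF1R to keep macrophages alive, CSF2 through a receptor that uses JAK2 and STAT5, and SOCS2, itself a STAT5 target, restrains growth hormone signalling. IL6, LIF, CSF1 and IL32 are known as genes that TNFα can induce through NFκB in many cell types.

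HEK293 is a human embryonic kidney cell line. Its cells were given no DNA (untransfected), pCDNA3 alone (empty vector), pCDNA3-Flag-SIRT6 wild type, or pCDNA3-Flag-SIRT6 carrying H133W, a mutation that leaves the protein without deacetylase activity. After 24 h with the transfection complexes the medium was changed, and each kind of cell was kept with 10 ng/ml TNFα or, as the resting control, with the PBS/BSA in which it was dissolved. These 8 conditions were each measured on 3 arrays, which the labels call biological replicates, 24 arrays in all. The stimulation lasted 4 h by the study's methods and 1 h by the description of the series, and the files do not settle which. Transfection was transient, so that a sample pools cells that took up the plasmid with cells that did not, and in such bulk RNA fewer expressing cells cannot be told apart from less RNA per cell.

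Values are deposited RMA log2 values, in which 1 unit is a doubling, and the medians of the 24 arrays lay between 5.30 and 5.38. They carry no detection calls, and a level of one probe set is not set against that of another. To count as upregulated or downregulated a transcript needed an adjusted p of limma under 0.05 together with a fold change over 1.5, or 0.58 on the log2 scale. With only 3 arrays in a condition every value is of limited precision. The mean of 9 markers of HEK293 cells lay between 8.96 and 9.23 on the arrays. Among them NES averaged 4.94, PAX2 4.99 and NEFM 5.11, and the others 9.63 to 12.34. The mean of 6 blood cell markers lay between 3.24 and 3.61 and that of 5 endothelial markers between 3.22 and 3.69. That of 6 fibroblast markers lay between 4.61 and 5.45, COL1A1 averaging 7.38 and COL3A1 7.46 among them. The lists read different probe sets, so their levels were not compared with each other. Replicate 3 of H133W cells with TNFα stood apart from the other arrays. The difference between the 3′ and 5′ control probe sets of β-actin, a sign of RNA quality, was 3.03 on that array and 2.05 on replicate 2 of empty vector cells, against 1.33 to 1.79 on the other 22. No call of a member changed without the latter array. The over expressed gene was read by a pair of probe sets. One of them, 233179_x_at, read 7.76 to 9.31 in resting empty vector cells, 9.31 to 9.37 in SIRT6 cells and 9.57 to 9.86 in H133W cells. Its name marks it as one that can bind further transcripts. The other, 219613_s_at, read 8.20 to 8.45, 8.35 to 8.49 and 8.38 to 8.47 in the same resting cells, which overlap. With TNFα it read 8.16 to 8.23 in empty vector, 8.22 to 8.44 in SIRT6 and 8.53 to 8.94 in H133W cells. There only the H133W arrays lay apart from the others. Whether either covers sequence present in the plasmids is not given in the files. At the protein level, the study reports expression of both forms by Western blots of cell extracts with anti-SIRT6 and anti-Flag.

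The first question was which members responded to TNFα. IL32 was upregulated about 3-fold in all 4 kinds of cell, and SOCS2 was upregulated in all 4 by its lead probe set, the one with the highest mean over the 24 arrays. IL6ST was upregulated by 3 of its 7 probe sets in untransfected and in empty vector cells and by 4 in SIRT6 cells, but by none in H133W cells. In H133W cells 2 of them had an adjusted p of limma under 0.05 but fell short of the fold threshold. One of these, 204863_s_at, passed without TNFα replicate 3 (0.60). CSF1 was upregulated by 1 of 4 probe sets in untransfected and H133W cells. No probe set of IL6, LIF, IL11, SOCS1 or SOCS3 passed with TNFα in any kind of cell, and no member was downregulated. In counts, 7 of the 27 probe sets were upregulated in untransfected cells, against 0.602% of all probe sets on the array. The count was 6 in empty vector cells, against 0.583%. It was 8 in SIRT6 cells, against 0.503%, and 3 in H133W cells, against 0.543%. Over all probe sets 0.174% were downregulated in untransfected, 0.276% in empty vector, 0.342% in SIRT6 and 0.572% in H133W cells. The median log2 change of the 27 probe sets was 0.11, 0.16, 0.14 and 0.12 in these 4 kinds of cell in the same order, and that of all probe sets was -0.0096, -0.018, -0.019 and -0.0048.

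**Figure D1:**
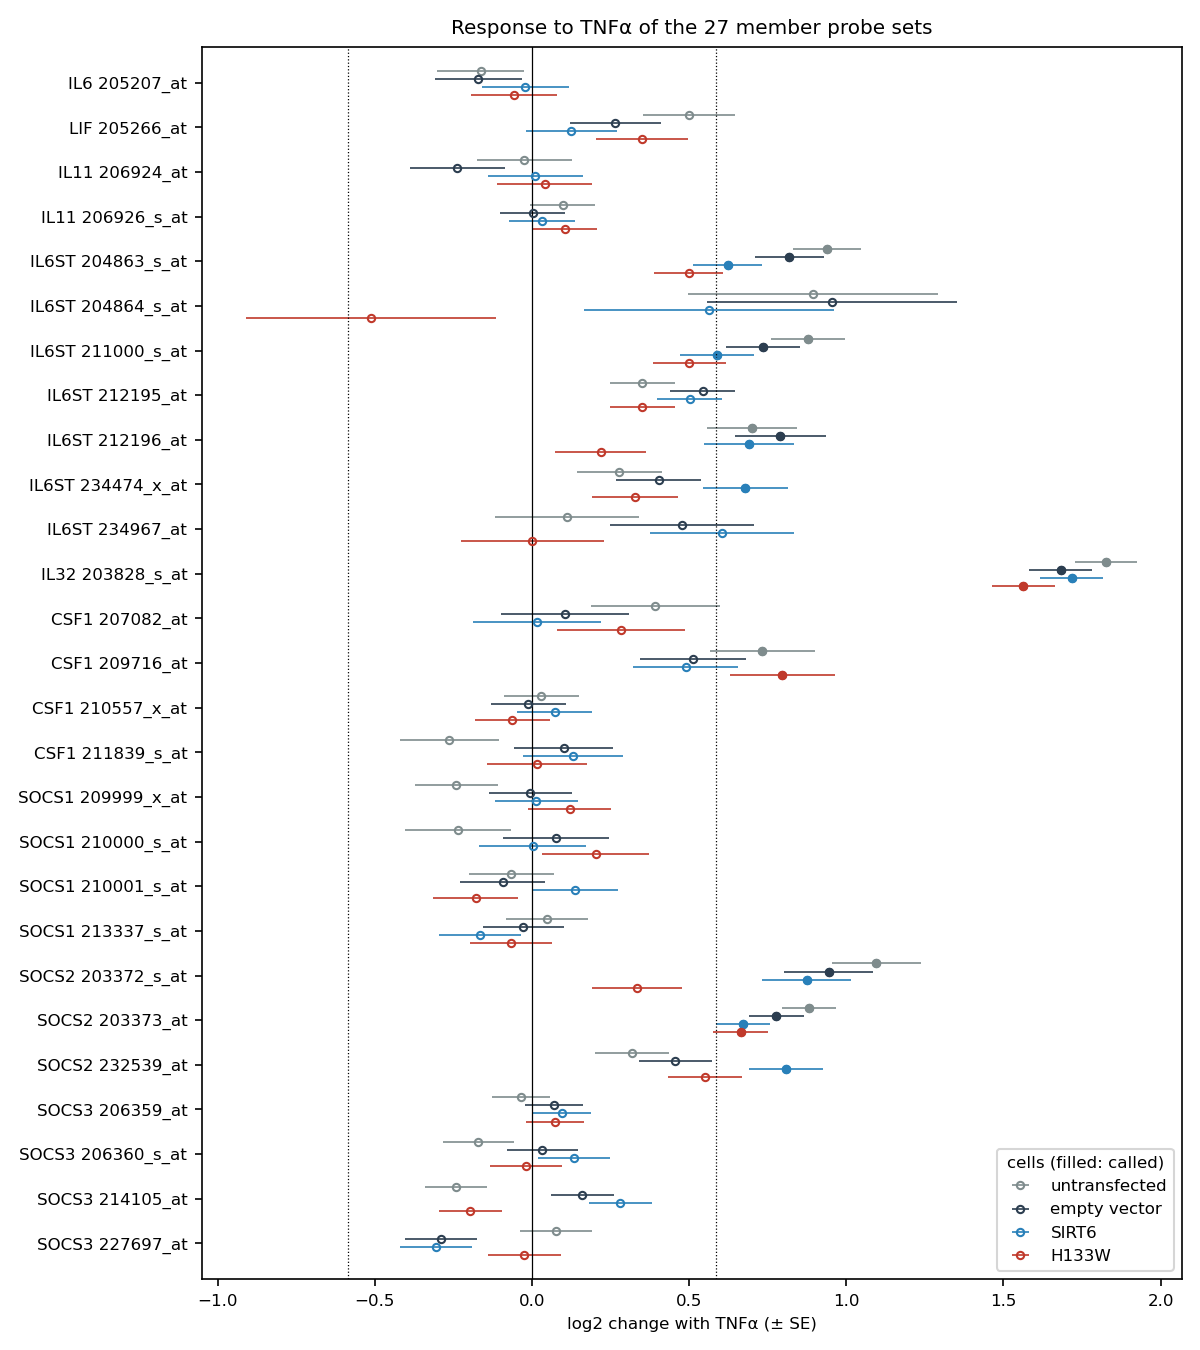
Log2 change with TNFα (x axis, ± SE, n = 3 arrays against 3) of each of the 27 member probe sets (y axis) in the 4 kinds of cell, with filled points for those that passed and dotted lines at a fold change of 1.5. IL32 lies farthest to the right in all 4, at 1.56 to 1.83, and the IL6ST probe set 204864_s_at lies below 0 in H133W cells, at -0.51, and reads 0.22 there without TNFα replicate 3.

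Promoter sequence was examined for the members because NFκB binds DNA at κB sites. RefSeq's table (GRCh38.p14) holds promoters for 7 members, and none for LIF, CSF1 and SOCS2. The 7 members have 9 promoters, 2 each for IL32 and SOCS3. The 250 bases before the transcription start were searched on both strands for the κB consensus. It was found in 4 members, IL6, IL6ST, IL32 and SOCS1, and in 9.96% of all 35116 promoters of that length. This share is over promoters and not genes, and the other promoter of IL32 had no match. The 4 stretches are shown because they belong to a pair of genes that TNFα upregulated, IL32 and IL6ST, and a pair that did not pass, IL6 and SOCS1. They are printed 5′ to 3′ on the strand of the gene with the match in capitals. IL32 lies on the plus strand at chr16:3065153-3065402, and its capitals join overlapping matches on both strands, from base -99 to base -89 counted from the start. IL6ST is read from the minus strand at chr5:55994964-55995213, with a match on the opposite strand from -53 to -44. IL6 lies on the plus strand at chr7:22726950-22727199, with a match from -73 to -64. SOCS1 is read from the minus strand at chr16:11256205-11256454, and its match from -67 to -58 reads on both strands.
IL32: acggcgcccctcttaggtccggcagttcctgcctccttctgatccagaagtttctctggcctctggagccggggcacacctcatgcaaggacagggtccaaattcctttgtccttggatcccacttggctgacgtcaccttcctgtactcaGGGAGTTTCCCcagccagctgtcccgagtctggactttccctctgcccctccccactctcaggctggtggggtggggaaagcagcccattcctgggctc
IL6ST: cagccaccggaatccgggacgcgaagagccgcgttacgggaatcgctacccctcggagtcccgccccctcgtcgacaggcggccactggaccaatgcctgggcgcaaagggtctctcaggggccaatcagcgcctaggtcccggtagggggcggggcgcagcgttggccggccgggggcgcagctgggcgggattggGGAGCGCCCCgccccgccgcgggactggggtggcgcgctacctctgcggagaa
IL6: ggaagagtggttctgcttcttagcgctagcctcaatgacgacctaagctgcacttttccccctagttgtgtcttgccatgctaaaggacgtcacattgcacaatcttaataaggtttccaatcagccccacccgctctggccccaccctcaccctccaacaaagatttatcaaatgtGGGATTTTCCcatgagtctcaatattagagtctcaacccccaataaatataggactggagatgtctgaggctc
SOCS1: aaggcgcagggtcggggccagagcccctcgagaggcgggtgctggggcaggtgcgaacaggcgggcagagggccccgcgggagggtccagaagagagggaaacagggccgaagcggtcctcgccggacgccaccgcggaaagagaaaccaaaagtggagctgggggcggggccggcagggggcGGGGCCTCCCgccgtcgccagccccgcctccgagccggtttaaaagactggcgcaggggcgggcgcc
A motif for STAT factors, TTCNNNGAA, was found in the promoter of CSF2 only, and in 6.57% of all promoters. A match is a run of letters and not a measured binding site.

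Among the ligands, IL6, the founding cytokine of the family, did not pass. On 205207_at it read 4.63, 5.01 and 4.65 in resting empty vector cells and 4.59, 4.79 and 4.41 with TNFα. The groups overlapped, and the change was -0.17 ± 0.14 (SE, n = 3 against 3). In untransfected, SIRT6 and H133W cells the change was -0.16, -0.02 and -0.06, and over all 24 arrays the values ran from 4.41 to 5.13. LIF, which sustains stem cells and acts through LIFR and gp130, read 5.43, 5.27 and 5.34 in untransfected cells and 5.72, 6.02 and 5.80 with TNFα. The stimulated arrays were all higher, by 0.50 ± 0.15 (SE), but the adjusted p of limma was 0.119. The change of LIF was 0.27 in empty vector, 0.13 in SIRT6 and 0.35 in H133W cells, with adjusted p of limma from 0.204 to 0.86. IL11, a cytokine of stroma and platelet precursors, changed by -0.24 to 0.10 over its 2 probe sets and the 4 kinds of cell.

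IL6ST encodes the receptor chain that all 3 ligands need. On 204863_s_at it read 7.62, 7.43 and 7.83 in untransfected cells and 8.68, 8.45 and 8.56 with TNFα. In empty vector cells the values were 7.65, 7.57 and 7.71, and with TNFα 8.45, 8.48 and 8.47. Every one of the 12 stimulated arrays, from 8.20 to 8.68, lay above every one of the 12 resting arrays, from 7.43 to 8.13. The rise was 0.94 ± 0.11 (SE, adjusted p of limma 1.84e-05) in untransfected and 0.82 ± 0.11 (0.000108) in empty vector cells. It was 0.62 (0.00211) in SIRT6 cells, where it fell short of the fold threshold, at 0.54, without SIRT6 replicate 1. In H133W cells the difference was 0.50 (adjusted p of limma 0.0135), below the fold threshold. Another probe set, 211000_s_at, rose by 0.88, 0.73 and 0.59 in untransfected, empty vector and SIRT6 cells and differed by 0.50 in H133W cells, again below the threshold. The probe set 212196_at rose by 0.70, 0.79 and 0.69 in the first 3 kinds of cell and differed by 0.22 in H133W cells, or by 0.48 without TNFα replicate 3, below the fold threshold either way.

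Not all IL6ST probe sets told the same. The lead probe set, 212195_at, was higher with TNFα by 0.35 to 0.54 in the 4 kinds of cell, under the fold threshold in each. In SIRT6 cells 234474_x_at rose by 0.68 (adjusted p of limma 0.00718), and in the other 3 kinds it changed by 0.28 to 0.40 without passing. The name of this probe set marks one whose probes can bind more than one transcript. In H133W cells 1 array lay low. With TNFα, 204864_s_at read 6.73, 6.79 and 4.56 in H133W cells, and 212196_at read 9.55, 9.55 and 8.78. The low value of each was that of replicate 3, the array with the largest difference between the ends of β-actin, and on 204864_s_at the next lowest of the 24 arrays was replicate 2 of empty vector cells, at 5.28. Without replicate 3 the change of 204864_s_at in H133W cells turned from -0.51 to 0.22, and neither passed. The change of 204863_s_at was 0.60 (adjusted p of limma 0.00345), which passed. The part of RNA quality in these differences was not tested. Single arrays also decide the calls of IL6ST in SIRT6 cells. There 211000_s_at did not pass without resting replicate 1 or 3 or TNFα replicate 1 (0.52 to 0.57), 212196_at not without resting replicate 2 or TNFα replicate 3 (0.62 and 0.67, adjusted p of limma 0.0768 and 0.0545), and 234474_x_at not without resting replicate 1 (0.63). In untransfected cells 212196_at did not pass without TNFα replicate 3 (0.65, 0.0637).

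**Figure D2:**
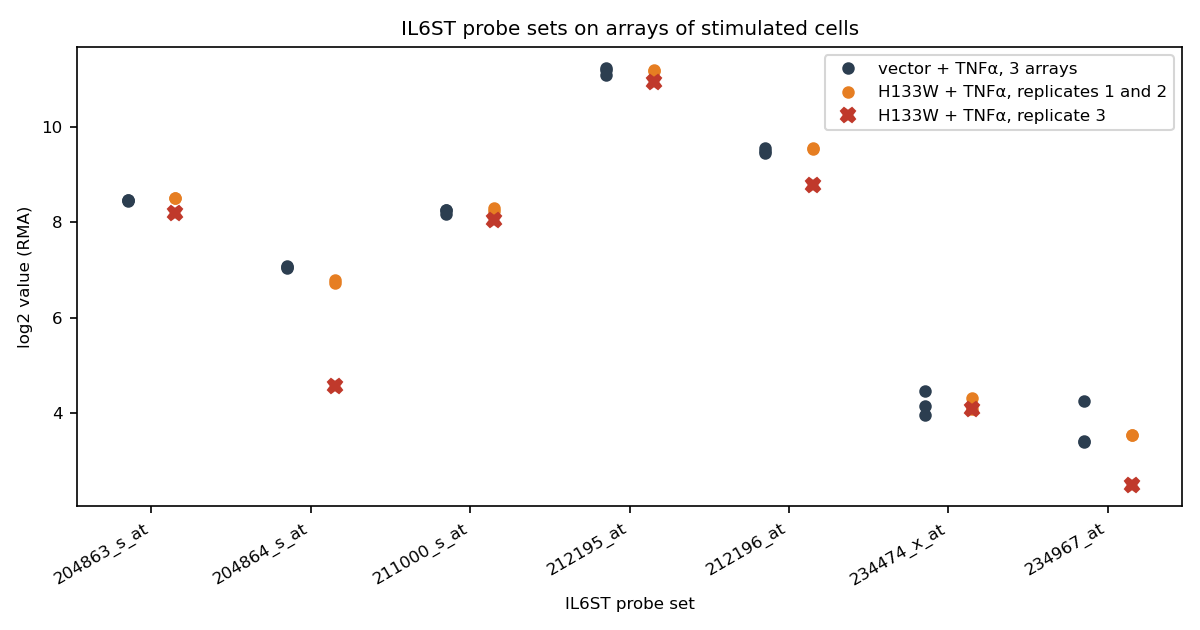
Log2 values (y axis) of the 7 IL6ST probe sets (x axis) on the single arrays of TNFα stimulated cells transfected with empty vector (dark points, 3 arrays) or H133W (orange points, replicates 1 and 2, and red cross, replicate 3). Replicate 3 minus the mean of replicates 1 and 2 is -2.20 on 204864_s_at, -1.06 on 234967_at and -0.78 on 212196_at.

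IL32, a cytokine first found in activated lymphocytes, gave the largest change among the members in each kind of cell. On its 1 probe set, 203828_s_at, untransfected cells read 8.52, 8.05 and 8.48 at rest and 10.11, 10.29 and 10.13 with TNFα. Empty vector cells read 8.45, 8.40 and 8.64, and 10.23, 10.16 and 10.16 with TNFα. Over the 4 kinds of cell the resting arrays lay between 8.05 and 8.72 with a median of 8.54, and the stimulated arrays between 10.11 and 10.36 with a median of 10.23. The groups were thus more than 1 unit apart. The rise was 1.83 ± 0.10 (SE, 3.55-fold, adjusted p of limma 1.84e-10) in untransfected and 1.68 (3.21-fold, 7.54e-10) in empty vector cells. It was 1.72 (3.29-fold, 4.64e-10) in SIRT6 and 1.56 (2.96-fold, 3.16e-09) in H133W cells, and it passed under every alternative that was run, a fold threshold of 2 included.

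CSF1, the macrophage growth factor, changed less and less evenly. On its lead probe set, 209716_at, untransfected cells read 5.86, 5.48 and 5.87 at rest and 6.62, 6.61 and 6.17 with TNFα. H133W cells read 5.62, 5.76 and 5.78 at rest and 6.36, 6.26 and 6.94 with TNFα. In both the stimulated arrays were all higher, by 0.73 ± 0.17 (SE, adjusted p of limma 0.024) and 0.80 ± 0.17 (0.00994). In empty vector cells the difference was 0.51 (adjusted p of limma 0.157) and in SIRT6 cells 0.49 (0.201), which did not pass. Both calls depend on single arrays. In untransfected cells the rise no longer passed without replicate 2 (0.60, adjusted p of limma 0.138) or without TNFα replicate 1 or 2 (0.66 in both, 0.137 and 0.139). In H133W cells it no longer passed without TNFα replicate 3 (0.59, 0.0531) or without resting replicate 1 (0.75, 0.0572). The other 3 probe sets of CSF1 did not pass and changed by -0.26 to 0.39.

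Of the inhibitors, SOCS2 responded and SOCS1 and SOCS3 did not pass. SOCS2 read 8.07, 8.15 and 8.11 on 203373_at in untransfected cells and 9.06, 8.89 and 9.03 with TNFα. Empty vector cells read 8.38, 8.43 and 8.14, and 9.19, 9.04 and 9.07 with TNFα. All 12 stimulated arrays, from 8.89 to 9.27, lay above all 12 resting arrays, from 8.07 to 8.62. The rise was 0.88 ± 0.086 (SE, 1.84-fold, adjusted p of limma 1.57e-06) in untransfected, 0.78 (1.01e-05) in empty vector, 0.67 (6.51e-05) in SIRT6 and 0.66 (8.85e-05) in H133W cells. A further probe set, 203372_s_at, rose by 1.10, 0.94 and 0.87 in the first 3 kinds of cell. In H133W cells it read 7.26, 7.02 and 6.99 at rest and 7.65, 7.43 and 7.18 with TNFα, which overlap, and the difference of 0.33 did not pass (adjusted p of limma 0.213). The remaining one, 232539_at, rose in SIRT6 cells by 0.81 (adjusted p of limma 0.000279). It differed by 0.32, 0.46 and 0.55 in untransfected, empty vector and H133W cells, below the fold threshold.

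SOCS1, the inhibitor of JAK kinases that interferon induces, changed by -0.24 to 0.20 over its 4 probe sets and the 4 kinds of cell. On the lead probe set of SOCS3, 227697_at, empty vector cells read 6.01, 6.21 and 6.18 at rest and 5.79, 5.88 and 5.86 with TNFα. All 3 stimulated arrays were lower here, but the difference of -0.29 ± 0.11 (SE) did not pass (adjusted p of limma 0.292). It was -0.30 in SIRT6 cells (0.278), -0.02 in H133W cells and 0.08 in untransfected cells. Another SOCS3 probe set, 214105_at, went the other way, with all stimulated arrays higher in empty vector cells (0.16) and SIRT6 cells (0.28, adjusted p of limma 0.23), and it did not pass either.

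**Figure D3:**
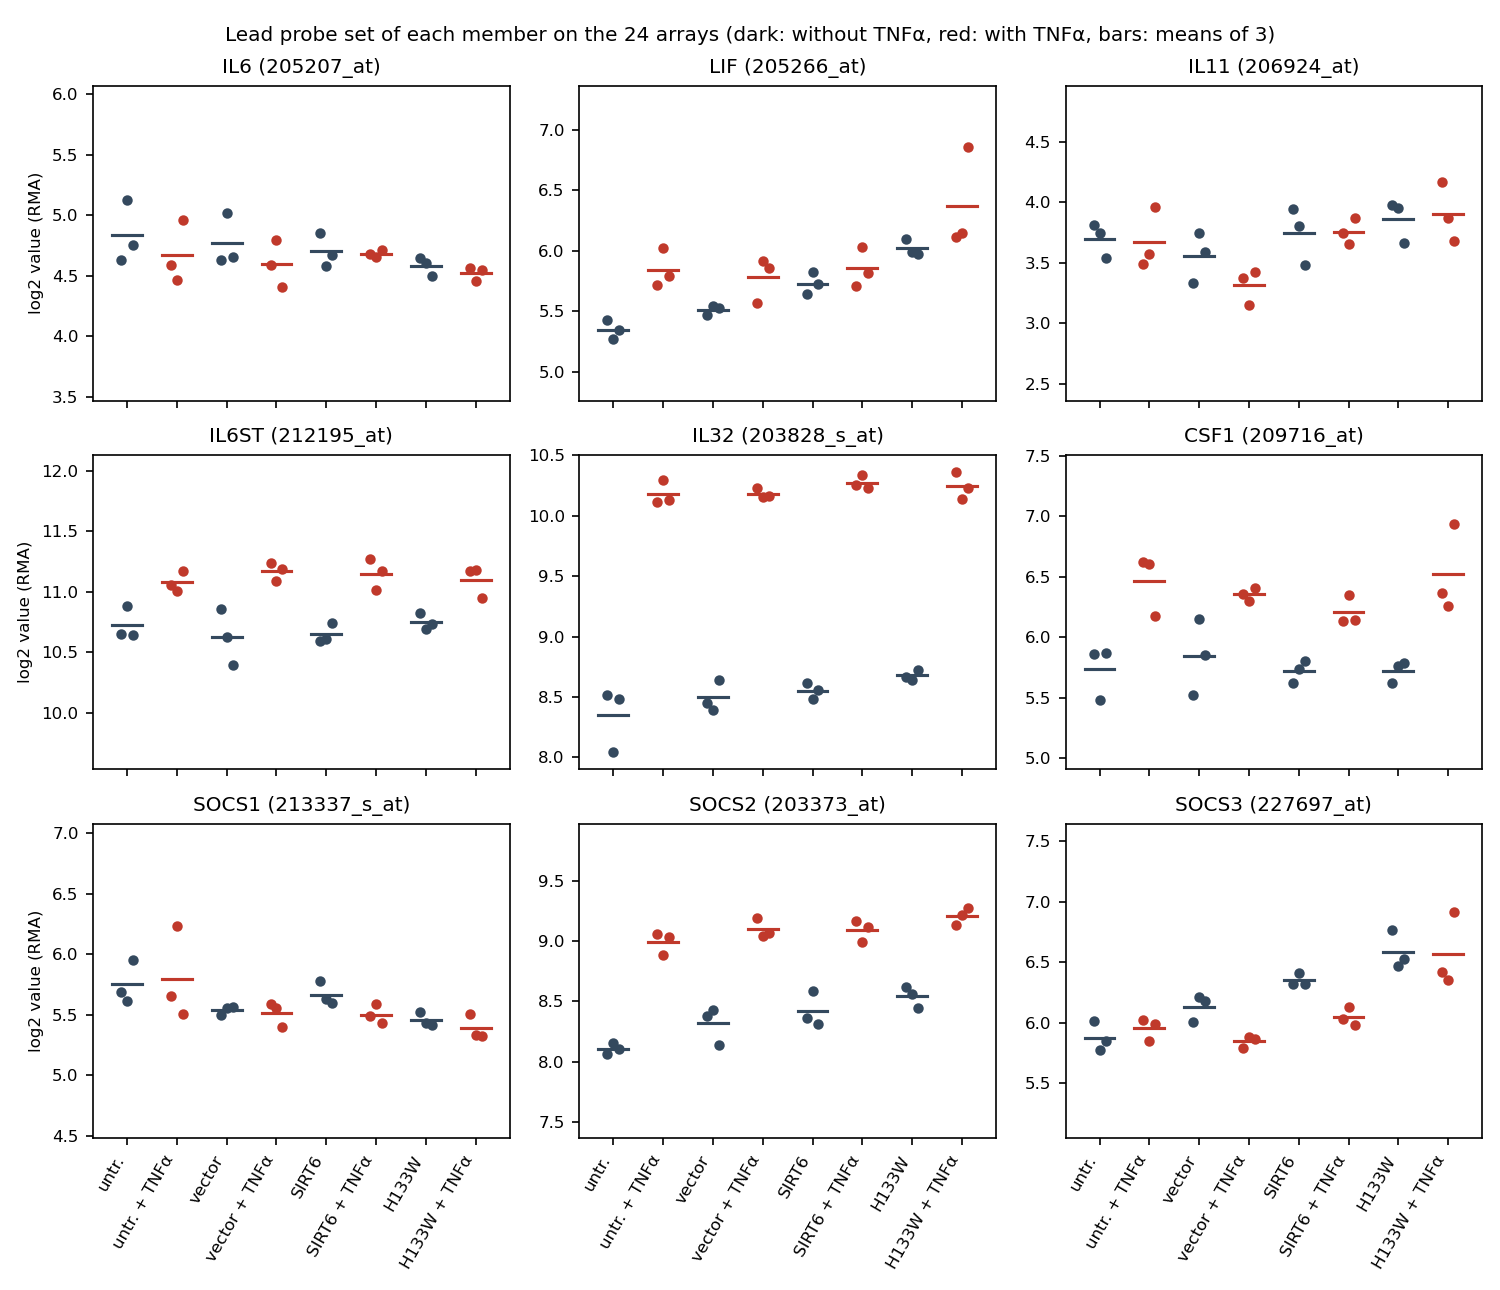
Log2 values (y axis, each panel spanning 2.6 units) of the lead probe set of the 9 measured members on each of the 24 arrays, by condition (x axis), with dark points for arrays without and red points for arrays with TNFα and bars for the means of 3. IL32, SOCS2 and IL6ST lie higher with TNFα in all 4 kinds of cell, whereas LIF and SOCS3 lie highest in H133W cells.

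Whether the response to TNFα itself differed between kinds of cell was tested by interaction terms, that is, the change with TNFα in one kind of cell minus that in another. For SIRT6 against empty vector 0 of the 27 probe sets passed in limma, and 1 had an unadjusted p under 0.05. For H133W against empty vector 0 passed and 4 had such a p, and for empty vector against untransfected 0 and 2. A plain linear model also gave 0 in each. Over all probe sets 0%, 0.00366% and 0% passed in either direction in these 3 terms. An unadjusted p under 0.05 was found for 1096, 4623 and 1321 of the 54675 probe sets, in the same order. IL32 gave a term of 0.03 (95% CI -0.26 to 0.33) for SIRT6 and -0.12 (-0.42 to 0.18) for H133W. SOCS2 on 203373_at gave -0.11 (-0.36 to 0.15) and -0.11 (-0.37 to 0.14). The lowest term was that of IL6ST on 204864_s_at for H133W, -1.47 (adjusted p of limma 0.567), and it was -0.73 without the low array described above. That IL6ST was upregulated in SIRT6 cells and not in H133W cells is therefore not shown to be a difference between them, and the difference between the responses of these 2 kinds of cell was not itself tested.

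The next question was whether wild type SIRT6 moved the members away from their levels in empty vector cells. It did not to a degree that passed. Without TNFα 0 of the 27 probe sets passed in limma, against 0.0348% called in either direction over all probe sets, and 1 had an unadjusted p under 0.05. With TNFα 0 passed, against 0.0695%, and 3 had such a p. The plain linear model gave 0 in both. Of all 54675 probe sets, 3046 had an unadjusted p under 0.05 without TNFα and 3613 with it. The median log2 difference of the members was 0.08 and 0.07, against -0.0031 and -0.0041 over all probe sets. Among the lead probe sets the differences without TNFα ran from -0.12 for CSF1 to 0.22 for SOCS3, and with TNFα from -0.14 for CSF1 to 0.44 for IL11. IL32 differed by 0.06 (95% CI -0.15 to 0.26) without and by 0.09 (-0.12 to 0.30) with TNFα. For IL11 with TNFα, 206924_at read 3.37, 3.15 and 3.42 in empty vector cells and 3.75, 3.65 and 3.87 in SIRT6 cells. The groups did not overlap, but the difference of 0.44 had an adjusted p of limma of 0.48.

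The H133W mutant was set against the same empty vector arrays. With TNFα, LIF, IL11 and SOCS3 were higher in H133W cells, each by 1 probe set and each by a fold close to the threshold. Thus 3 of the 27 probe sets were upregulated, against 1.05% of all probe sets, and none was downregulated, against 0.346%. Without TNFα 0 passed in limma and in the plain linear model, against 0.77% called in either direction, and 7 had an unadjusted p under 0.05. Of all 54675 probe sets, 8063 had such a p. The median difference of the 27 was 0.12 without and -0.024 with TNFα, against -0.017 and -0.0066 over all probe sets.

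With TNFα, SOCS3 read 5.79, 5.88 and 5.86 on 227697_at in empty vector cells and 6.42, 6.35 and 6.91 in H133W cells. The H133W arrays were all higher, by 0.72 ± 0.11 (SE, 1.65-fold, adjusted p of limma 0.000734). Without TNFα the values were 6.01, 6.21 and 6.18 against 6.77, 6.47 and 6.52, a difference of 0.45 (adjusted p of limma 0.0336) below the fold threshold. The other 3 probe sets of SOCS3 differed by -0.16 to 0.05 with TNFα, so that the gene is called on 1 of 4, and the mean of the 4 differed by 0.15 (adjusted p of limma 0.197). LIF read 5.57, 5.91 and 5.86 in empty vector cells with TNFα and 6.11, 6.14 and 6.86 in H133W cells. Again the H133W arrays were all higher, by 0.59 ± 0.15 (SE, adjusted p of limma 0.0215), and without TNFα the difference was 0.51 (0.0671). IL11 read 3.37, 3.15 and 3.42 on 206924_at against 4.17, 3.87 and 3.68. This is a difference of 0.59 ± 0.15 (SE, adjusted p of limma 0.0277), at low log2 values, and the other IL11 probe set differed by 0.07. On 206924_at the mean of empty vector cells with TNFα, 3.32, was the lowest of the 8 conditions. It was 3.67 in untransfected and 3.76 in SIRT6 cells with TNFα.

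The highest LIF and SOCS3 values in H133W cells with TNFα, 6.86 and 6.91, were both on replicate 3. Without that array LIF differed by 0.35 (adjusted p of limma 0.0846), and SOCS3 by 0.54 (0.00162), under the fold threshold. IL11 then differed by 0.70 (0.0175) and still passed. LIF also failed to pass without empty vector TNFα replicate 1 (0.49, adjusted p of limma 0.116). IL11 failed to pass without any single one of the 3 empty vector TNFα arrays (0.51 to 0.64, adjusted p of limma 0.0518 to 0.129) or without H133W TNFα replicate 1 (0.46, 0.0733). Of the remaining members, IL32 differed by 0.06 and SOCS2 on 203373_at by 0.11 with TNFα, and neither passed. The largest difference was that of IL6ST on 204864_s_at, -1.04 (adjusted p of limma 0.14), with all H133W arrays lower, and it was -0.31 without replicate 3.

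**Figure D4:**
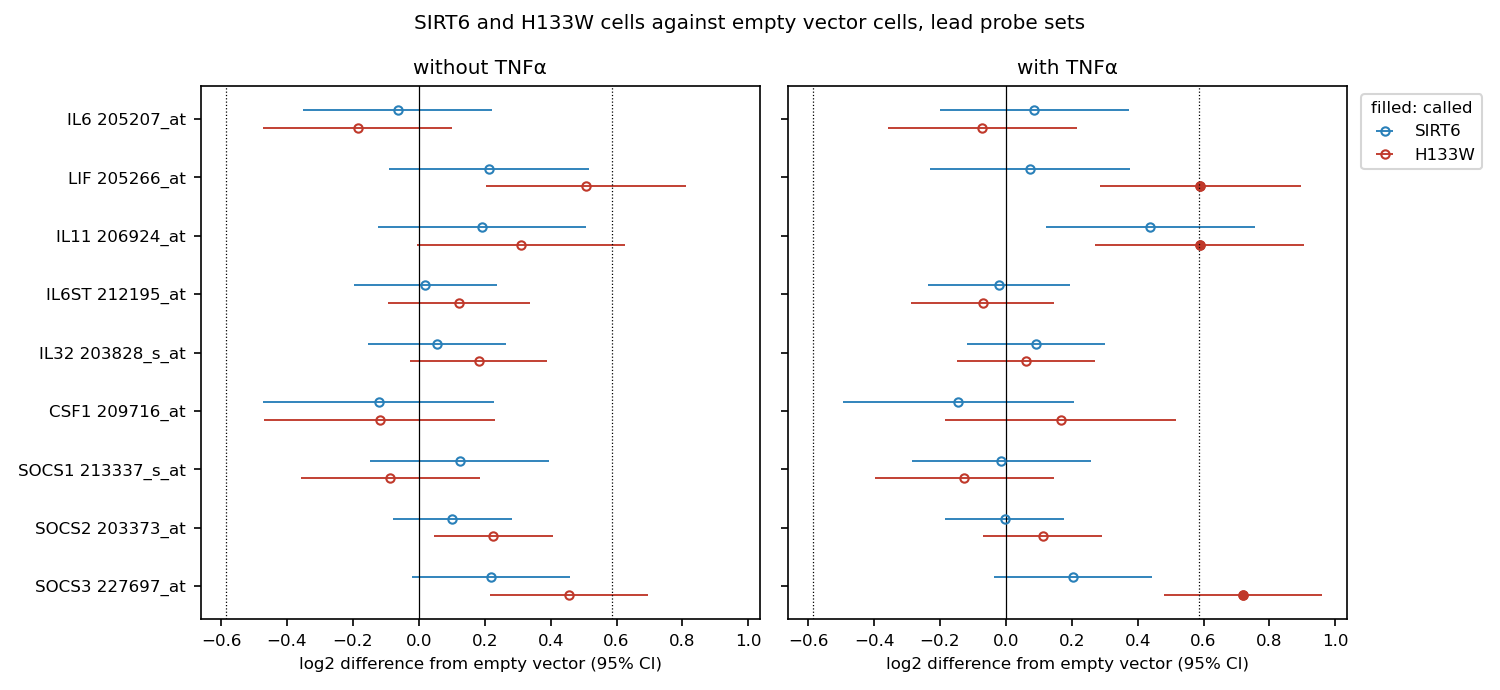
Log2 difference from empty vector cells (x axis, with 95% CI) of the lead probe set of each of the 9 measured members (y axis) in SIRT6 cells (blue) and H133W cells (red), without TNFα (left) and with TNFα (right), with filled points for those that passed and dotted lines at a fold change of 1.5. Only LIF, IL11 and SOCS3 in H133W cells with TNFα are filled, at 0.59, 0.59 and 0.72.

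Set against each other, H133W and wild type SIRT6 did not differ enough to pass in any of the 27 probe sets. Without TNFα 0 passed in limma and 0 had an unadjusted p under 0.05, against 0.119% called in either direction over all probe sets. With TNFα 0 passed, against 0.333%, and 5 had such a p, while the plain linear model gave 0 in both. Of all 54675 probe sets, 4751 had an unadjusted p under 0.05 without TNFα and 8719 with it. In SIRT6 cells with TNFα SOCS3 read 6.03, 6.13 and 5.98, all below the H133W values, and the difference of 0.52 (adjusted p of limma 0.0329) was under the fold threshold. LIF read 5.71, 6.03 and 5.82 in the SIRT6 cells, also all below, and differed by 0.52 (0.0907). Without H133W TNFα replicate 1 or 2 both passed, LIF at 0.65 and 0.63 and SOCS3 at 0.59 and 0.62, and without replicate 3 they differed by 0.27 and 0.34. IL11 on 206924_at differed by only 0.15 between H133W and SIRT6 cells with TNFα and did not pass.

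The empty plasmid was examined by setting empty vector against untransfected cells, which were given no DNA. Whether the latter received the transfection reagent is not stated outright, so the effect of the reagent cannot be told from this comparison. Of the 27 probe sets 0 passed in limma and in the plain linear model without TNFα, against 0.0933% called in either direction over all probe sets, and 8 had an unadjusted p under 0.05. With TNFα 0 passed, against 0.0329%, and 5 had such a p. Of all 54675 probe sets, 6756 had an unadjusted p under 0.05 without TNFα and 6292 with it. Differences of the lead probe sets ran from -0.21 for SOCS1 to 0.26 for SOCS3 without TNFα, and from -0.36 for IL11 to 0.11 for SOCS2 with it.

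The rest of the pathway was described through lists of genes. They held 26 probe sets for the IL6 family, 17 for the CSF group, 14 for SOCS box proteins, 63 for JAK-STAT signalling and 27 for STAT3 targets. Over all probe sets no more than 1.05% were upregulated in any comparison, and no more than 0.572% downregulated in the TNFα comparisons. Of 12 measured ligands and receptors of the IL6 family other than the members, IL27RA, a receptor chain that pairs with gp130, rose with TNFα in untransfected cells on 222062_at (0.73, adjusted p of limma 0.0351) and did not pass on its lead probe set, and no other passed in any of the comparisons. Of 10 ligands and receptors of the CSF group and of 5 further SOCS box proteins none passed in any comparison. At such shares over the whole array, no call in lists this short does not set them apart. Among 18 measured genes of JAK-STAT signalling, STAT5A, a transcription factor known to induce SOCS2, rose with TNFα by 0.67 in empty vector, 0.96 in SIRT6 and 0.67 in H133W cells, but did not pass in untransfected cells. JAK2 rose with TNFα in H133W cells on 1562031_at (0.65, adjusted p of limma 0.042), and on this probe set it was higher in H133W than in SIRT6 cells with TNFα (0.76, 0.0351). The lead probe set of JAK2 did not pass in either comparison. STAT5B was higher in H133W than in empty vector cells with TNFα on 205026_at by 0.60 (0.0278), but did not pass on its lead probe set. Of 13 measured genes known as targets of STAT3, the transcription factors IRF1 and JUNB rose with TNFα in all 4 kinds of cell. JUNB rose by 1.87, 1.70, 1.55 and 1.24 in untransfected, empty vector, SIRT6 and H133W cells. IRF1 is also known as a target of NFκB, and JUNB as an immediate early gene. MYC fell with TNFα in H133W cells by 0.73 on the log2 scale and was lower there than in stimulated empty vector cells, by -0.69. VEGFA, the angiogenic growth factor, was higher in H133W than in empty vector cells without TNFα by 0.61 to 0.67 on 3 probe sets. These were 210513_s_at, 211527_x_at and 212171_x_at, and none of them passed with TNFα. With TNFα only its lead probe set, 210512_s_at, passed (0.61), which did not pass without TNFα. The calls in H133W cells with TNFα include replicate 3, and its part in them was not tested.

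The pattern of a member over the 8 condition means was compared with that of every other named probe set by Pearson's r, as a description over 8 points that share their arrays. The genes most like IL32 were TNFAIP3, the NFκB feedback inhibitor A20, NFKB1 and CD69, with r from 0.998 to 0.999. Those most like SOCS2 were TAF4B, ABCA5 and EFNA1, with r from 0.992 to 0.995. Those most like the lead probe set of IL6ST were TIAM2, PPP1R15B and CALCA, with r from 0.99 to 0.992.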

How the data were processed

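RNA of 24 HEK293 samples was hybridised to Affymetrix HG U133 Plus 2.0 arrays. Per the labels RMA was used for normalization, and the log2 values that the authors deposited for 54675 probe sets were taken without change. All columns were matched to samples by label, and 0 columns had no sample. Probe sets were named through the platform's gene table, which gives 41097 of them 1 gene. Affymetrix control probe sets served as signs of RNA quality.

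In R 4.3.3 with limma 3.58.1 a linear model with a mean for each of 8 conditions was fitted to all 24 arrays (residual degrees of freedom 16, prior 3.47). Contrasts of the means gave 15 comparisons, each adjusted by the method of Benjamini and Hochberg over its 54675 probe sets. Calls used the study's limits, a 1.5-fold change and an adjusted p of 0.05. The study itself fitted a general linear model. All TNFα comparisons against one control share that control's arrays, as do the SIRT6 and H133W comparisons against empty vector.

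The members and lists were chosen with earlier results of these data known. All probe sets of the 10 members were named by rule, the probe set with the highest mean leading, and up to 4 called genes of each pathway list. The fit was tested on simulated data. Alternatives were a plain linear model, a variance trend, no dim probe sets (mean under 4), centred or again quantile normalized arrays, other fold thresholds, the replicate number as a block, the arrays of a comparison alone, the mean of a gene's probe sets, and leaving out each array. The study's own fold change lists were not used, and its protein and imaging experiments were not analysed here.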

Additional observations from a re-analysis of the deposited data

How the results depend on the processing

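No result that passed changed direction under any alternative. The change of IL6ST on 204864_s_at with TNFα in H133W cells, -0.51, did not pass and ran from -0.89 to 0.22 with single arrays left out. It was 0.22 without H133W TNFα replicate 3, 0.16 with arrays weighted, 0.22 with the 3 arrays of lowest weight dropped and 0.20 as the mean of the 7 IL6ST probe sets. IL32 passed with TNFα in all 4 kinds of cell under each of them, a fold threshold of 2 included. With that threshold the probe sets upregulated by TNFα numbered 2 in untransfected, 1 in empty vector, 1 in SIRT6 and 1 in H133W cells, and H133W against empty vector with TNFα gave 0. With no fold threshold TNFα in H133W cells gave 6, H133W against empty vector at rest 1, and H133W against SIRT6 with TNFα 1. Shares over all probe sets were taken at the 1.5-fold limit only, so the counts at other thresholds cannot be set against the whole array. On the arrays of each comparison alone, which leaves fewer samples to estimate the spread, TNFα in H133W cells gave 1 and H133W against empty vector with TNFα 0, and SOCS2 in H133W cells no longer passed (adjusted p of limma 0.063). With the probe sets of a gene averaged each of these gave 1 gene in place of 3. A pair of alternatives was chosen after seeing the data, and the cause of their effect was not tested. Weighting the arrays gave 5 for TNFα in H133W cells and 1 for H133W against empty vector with TNFα. Leaving out the 3 arrays of lowest weight gave 1 for the latter.

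Leaving out single arrays gave 5 to 8 probe sets for TNFα in SIRT6 cells (5 without SIRT6 replicate 1), 1 to 4 for H133W against empty vector with TNFα (1 without empty vector TNFα replicate 1 or H133W TNFα replicate 3) and 0 to 2 for H133W against SIRT6 with TNFα (2 without H133W TNFα replicate 1 or 2). It gave 6 to 7 for TNFα in untransfected and in empty vector cells and 2 to 4 in H133W cells. In SIRT6 cells the IL6ST calls are the ones that single arrays decide. The replicate number as a block gave the same counts, 7, 6, 8 and 3 for TNFα in the 4 kinds of cell, and changed no call count elsewhere. Deviations from the condition means correlated with r from -0.48 to 0.42 (median 0.0093) between samples of one number. Between samples of different numbers r ran from -0.46 to 0.54 (median 0.0050). Samples of one number were thus hardly more alike by the median, which does not settle whether arrays shared a batch. Of the member probe sets, IL6ST 204864_s_at had the largest SE of a difference between conditions, 0.40, and no detection call is known for any probe set.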
